A study of Mus musculus with 24 samples.

Results

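The miR-99, miR-100 and miR-125 families were followed here through 6 assays, chosen by assay name from the 584 miRNA assays of the series: mmu-miR-99a, mmu-miR-99b, mmu-miR-100, mmu-miR-125a-5p, mmu-miR-125a-3p and mmu-miR-125b-5p, written below without the prefix for mouse. All 6 were on the cards. The study ran quantitative PCR on TaqMan low density array cards with RNA of 4 groups of mouse cells, each with 3 replicates. L-1210 is a lymphocytic leukaemia line and M1 a myeloid leukaemia line, both grown in suspension. PYS is a teratocarcinoma line that grows as an adherent, epithelial-like layer. CT-BM was bone marrow flushed from femur and tibia. The lines were taken at passage 3, the labels record no treatment, and strain, age and whether animals were pooled are not given in the sources used here. The growth protocol attached to CT-BM describes a suspension culture and the series title speaks of stem cells, so the state of the bone marrow cells that were measured is not known. Whether the replicates came from separate cultures or mice is not stated, so the p-values below reflect only how far these samples spread, and that spread may be technical.

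A microRNA guides a silencing complex to messenger RNAs, mostly through pairing of its seed, bases 2 to 8 from the 5′ end, and so members with a shared seed are expected to bind many of the same targets. The mouse genome holds 3 clusters in which a miR-99 or miR-100 gene, a let-7 gene and a miR-125 gene follow each other. Members of the miR-125 family are known from blood stem and progenitor cells, where raised miR-125b can drive leukaemia in mice, and miR-99 and miR-100 are known for restraining the growth kinase mTOR.

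The mature sequences show which assays share a seed, and therefore which are compared as a family below. They are RefSeq sequences (GRCm38.p6), 5′ to 3′, with the seed in capitals.
miR-99a: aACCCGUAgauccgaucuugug
miR-100: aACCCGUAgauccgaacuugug
miR-99b: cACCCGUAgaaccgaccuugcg
miR-125a-5p: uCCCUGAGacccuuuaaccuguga
miR-125b-5p: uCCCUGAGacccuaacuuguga
miR-125a-3p: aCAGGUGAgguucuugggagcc

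The first 3 share the seed ACCCGUA, which occurs in 3 mature mouse sequences of the RefSeq table, all of them members. Counted from 1 at the 5′ end of miR-99a, miR-100 differs by the single substitution U16A, and miR-99b differs by A1C, U11A, U16C and U21C. The seed CCCUGAG occurs in 5 mature sequences of that table, of which 3 have an assay named for mouse on the cards: miR-125a-5p, miR-125b-5p and miR-351. The first 13 bases of miR-125a-5p and miR-125b-5p are identical. Where sequences are this close, how far one assay reads the other's RNA is not known from the deposited values.

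The Mir125a hairpin carries 2 of the 6 members. It is printed to show that both arms were assayed, with miR-125a-5p and then miR-125a-3p in capitals.
Mir125a: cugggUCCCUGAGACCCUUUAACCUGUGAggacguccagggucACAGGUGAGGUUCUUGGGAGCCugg
The 3p arm has a seed of its own, CAGGUGA, found in 1 mature sequence of the table.

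In GRCm38.p6, Mir99b (chr17:17830188-17830257), Mirlet7e (chr17:17830352-17830444) and Mir125a (chr17:17830812-17830879) lie within 692 bases, inside the bounds of the protein-coding gene Spaca6. On chromosome 9, Mir100 (chr9:41531425-41531504), Mirlet7a-2 (chr9:41536716-41536811) and Mir125b-1 (chr9:41581926-41582002) span 50.6 kb inside the bounds of their host transcript Mir100hg. On chromosome 16, Mir99a (chr16:77598936-77599000), Mirlet7c-1 (chr16:77599657-77599750) and Mir125b-2 (chr16:77646273-77646343) span 47.4 kb, and no gene of the annotation table contains them. Mir125b-1 and Mir125b-2 give the same mature sequence, so the miR-125b-5p assay cannot be assigned to either cluster.

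The measurement is the threshold cycle (Ct) of a well, which comes 1 cycle earlier for each doubling of template. A level is the negative delta Ct: the mean Ct of the control RNAs MammU6, snoRNA135 and snoRNA202, taken per card and replicate, minus the Ct of the assay, a log2 scale on which higher means more RNA. Wells that did not amplify (undetermined) or came up after Ct 35 count as not detected, and a fold against a group with no detected replicate is a bound at that limit. A replicate that was not detected is given that limit as its Ct, so its level varies only with the controls. Such levels also enter the spread behind the limma p-values. The table held 8969 wells over 24 card runs, 367 to 380 per run, and 48.3% were undetermined. Read depth does not apply, and the number of replicates limits the precision. On card A, which holds all 6 members, the 3 controls had a mean Ct of 13.8 (L-1210), 12.5 (M1), 13.9 (PYS) and 14.8 (CT-BM). The controls did not move together. The Ct of MammU6 minus that in CT-BM was -2.17 cycles in M1 and 0.567 cycles in PYS, and that of snoRNA202 was -2.67 and -1.53 cycles. With MammU6 alone the calls over all assays were 163 higher and 92 lower in L-1210 and 205 and 104 in PYS, in place of 75 and 152 in L-1210 and 144 and 140 in PYS. With snoRNA202 alone they were 42 and 240 in L-1210 and 121 and 161 in PYS. In M1 the main split of 82 higher and 144 lower became 136 and 109 with quantile normalization. Blood miRNAs were detected as 4 of 4 in L-1210, M1 and CT-BM and 3 of 4 in PYS. Embryonic stem cell miRNAs were detected as 3, 2, 7 and 2 of 7 in L-1210, M1, PYS and CT-BM. Their summed level relative to the controls was 0.639 to 0.913 in PYS. It was 1.17e-06 to 7.11e-06 in L-1210, 1.45e-07 to 2.10e-06 in M1 and 8.85e-05 to 0.000119 in CT-BM. By level not every marker went with the labels: the blood miRNA miR-150 was 2.56-fold higher in PYS than in L-1210 (limma adjusted p = 0.000116). That call depended on the control. The log2 change of miR-150 was 1.36, and snoRNA135 alone shifts all assays of card A alike, for miR-99a from 10.52 to 9.71. The same shift takes miR-150 under a 2-fold change. The blood miRNAs miR-142-3p, miR-223 and, as a bound, miR-142-5p were lower in PYS than in L-1210.

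All 6 members were detected in PYS and 5 in CT-BM, where miR-125a-3p was not. In both leukaemia lines they came up late or were not detected, except miR-100 in L-1210, which had Ct 26.92 and 25.28. In a bulk sample, fewer cells of a type and less RNA per cell cannot be told apart. The miR-99 and miR-100 seed family showed a different pattern for each of its members.

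miR-99a was undetermined in 3 of 3 replicates of L-1210 and of M1. It had Ct values of 24.95, 23.98 and 24.68 in PYS and 24.80, 25.01 and 24.90 in CT-BM. Its levels were -11.05, -10.50 and -10.46 in PYS, against -10.29, -9.95 and -10.04 in CT-BM. The PYS replicates were thus all below the CT-BM replicates, by a small margin. The difference did not pass the test (log2 change -0.58 ± 0.28, SE, limma adjusted p = 0.0737), and its sign depended on the control: it was 0.93 with MammU6 alone, 0.32 relative to the assays that all 12 replicates detected (common assays) and 0.36 with quantile normalization, and -1.50, -1.17 and -1.33 with snoRNA135 alone, snoRNA202 alone and both, where it was called. Against CT-BM, miR-99a was at least 2193-fold lower in L-1210 and at least 5603-fold lower in M1. A bound moves with the Ct limit and with the scaling: over the 7 scalings the smallest were 655-fold in L-1210, with MammU6 alone, and 1037-fold in M1, with quantile normalization.

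miR-99b had the earliest Ct of the members, in PYS. It too was undetermined in all replicates of L-1210 and M1, and it came up at Ct 18.30, 17.74 and 18.44 in PYS, against 24.00, 24.64 and 24.69 in CT-BM. The levels were -4.40, -4.26 and -4.21 in PYS and -9.49, -9.58 and -9.82 in CT-BM. No PYS replicate came near a CT-BM replicate. The level was 40.4-fold higher in PYS (log2 change 5.34 ± 0.26, SE, limma adjusted p = 3.96e-10), and over 20 settings of scaling, limit, filter, fit and replicates the log2 change ran from 4.42 to 6.85. By mean Ct, an order that also carries each assay's efficiency, miR-99b stood at rank 22 of the 209 assays of card A with signal in PYS, and at rank 103 of 202 in CT-BM. It was at least 3025-fold lower in L-1210 and at least 7729-fold lower in M1 than in CT-BM, and at the least 903-fold with MammU6 alone and 1729-fold with quantile normalization.

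miR-100 had the opposite order between these groups. Its Ct was 24.33, 23.19 and 24.58 in PYS, against 22.22, 22.98 and 22.78 in CT-BM. The levels were -10.43, -9.70 and -10.35 in PYS and -7.71, -7.92 and -7.91 in CT-BM, with no overlap. It was 4.98-fold lower in PYS (log2 change -2.32 ± 0.28, SE, limma adjusted p = 7.89e-06), but with MammU6 alone the change was -0.81 and did not pass (adjusted p = 0.122). miR-100 was also the one member of its seed family that amplified in a leukaemia line. In L-1210 it had Ct 26.92 and 25.28 in replicates 2 and 3, with levels of -12.64 and -11.95, and replicate 1 had no well for it in the table. Those L-1210 levels lay below all 3 of CT-BM, and the level was 21.8-fold lower (log2 change -4.45 ± 0.31, SE, limma adjusted p = 8.09e-08), or 5.36-fold lower with MammU6 alone. In M1 it was undetermined in 3 of 3 replicates and at least 26600-fold lower than in CT-BM, or 7854-fold with quantile normalization. In L-1210, then, the miR-100 assay amplified in both wells present, whereas the miR-99a assay, whose target differs by 1 base, was undetermined in all 3.

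**Figure D1:**
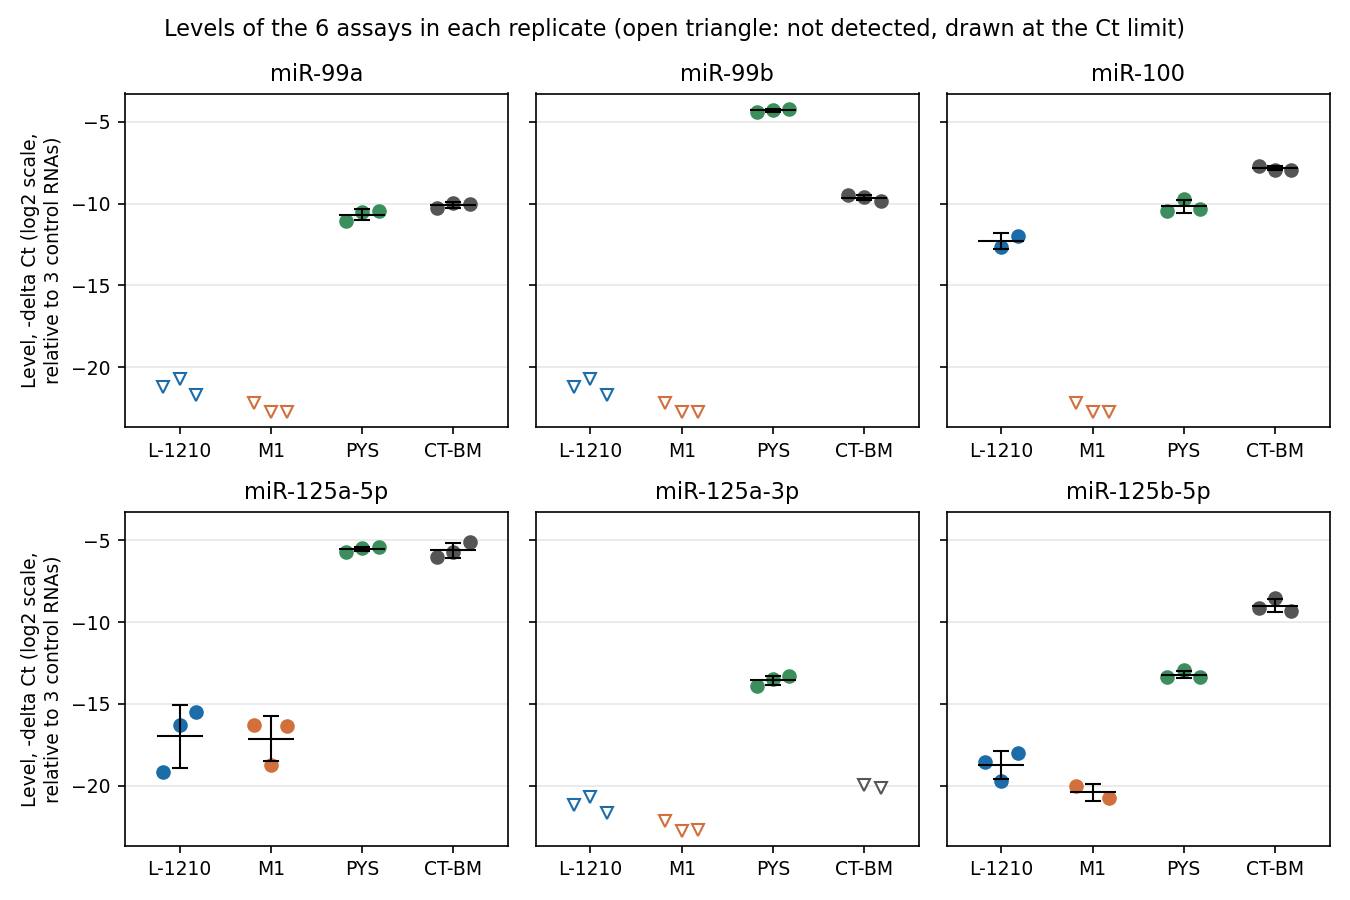
Level of each of the 6 assays (negative delta Ct, log2 scale, relative to the 3 control RNAs) in each replicate of L-1210, M1, PYS and CT-BM. Filled points are detected replicates, horizontal lines with bars are the mean ± SD, and open triangles are replicates that were not detected, drawn at the Ct limit. In PYS, miR-99b lies between -4.40 and -4.21, above its CT-BM values of -9.82 to -9.49, while miR-100 and miR-125b-5p lie below CT-BM.

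In the miR-125 seed family, both 5p members amplified in every replicate that had a well, and both came up late in the leukaemia lines. miR-125a-5p had Ct 32.98, 30.58 and 28.81 in L-1210 and 29.13, 30.98 and 28.61 in M1. In PYS it had Ct 19.58, 18.97 and 19.65, against 20.50, 20.78 and 19.99 in CT-BM. These values put it among the earlier assays of card A in both PYS (rank 37 of 209 with signal) and CT-BM (rank 35 of 202), and among the latest in L-1210 (rank 173 of 189) and M1 (rank 153 of 169).

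On the level scale miR-125a-5p was -19.16, -16.30 and -15.49 in L-1210 and -16.29, -18.72 and -16.35 in M1, against -5.99, -5.72 and -5.12 in CT-BM. Neither line overlapped CT-BM, though the lines' own replicates spread widely. The level was 2643-fold lower in L-1210 (log2 change -11.37 ± 0.83, SE, limma adjusted p = 4.62e-08). Without L-1210 replicate 1 this was 1242-fold and without replicate 3 it was 4436-fold. In M1 it was 2909-fold lower (log2 change -11.51 ± 0.83, SE, limma adjusted p = 4.78e-08), or 1670-fold without M1 replicate 2. Over the scalings the smallest differences were 789-fold in L-1210, with MammU6 alone, and 314-fold in M1, with quantile normalization. In PYS the levels of -5.68, -5.49 and -5.42 lay within the range of CT-BM, and the log2 change of 0.08 ± 0.82 (SE, limma adjusted p = 0.925) gave no call. That change was 1.59 with MammU6 alone and 0.98 with common assays, but -0.84 with snoRNA135 alone, -0.51 with snoRNA202 alone, -0.67 with both and -0.11 without CT-BM replicate 1, and it was called in 0 of 21 settings. The SE of 0.82 carries the spread of all 4 groups. The SD of the level was 1.93 in L-1210 and 1.39 in M1, against 0.13 in PYS and 0.45 in CT-BM. The lack of a call therefore does not show that PYS and CT-BM had equal levels.

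miR-125b-5p, the paralogue best known from blood stem cells, came up at Ct 32.34, 33.99 and 31.35 in L-1210 and at 32.88 and 33.02 in M1, where replicate 2 had no well in the table. Its Ct was 27.25, 26.42 and 27.56 in PYS, against 23.64, 23.61 and 24.19 in CT-BM. The levels were -18.53, -19.71 and -18.02 in L-1210, -20.04 and -20.76 in M1, and -13.35, -12.94 and -13.34 in PYS, against -9.13, -8.55 and -9.33 in CT-BM. The groups formed 4 separate steps without overlap on this scale, CT-BM highest and M1 lowest.

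Against CT-BM, miR-125b-5p was 861-fold lower in L-1210 (log2 change -9.75 ± 0.40, SE, limma adjusted p = 6.20e-10) and 2695-fold lower in M1 (-11.40 ± 0.45, adjusted p = 3.66e-10). Both stayed called under all 7 scalings, but the difference was 257-fold in L-1210 with MammU6 alone and 84.5-fold in M1 with quantile normalization. In PYS it was 18.5-fold lower (-4.21 ± 0.40, adjusted p = 9.09e-07), with log2 changes between -5.89 and -2.70 over 20 settings. Its paralogue miR-125a-5p did not pass the test in PYS, and the pair is compared below as a difference in Ct.

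miR-125a-3p, the other arm of the Mir125a hairpin printed above, was detected in PYS and in no other group. Its Ct there was 27.78, 26.97 and 27.54, with levels of -13.88, -13.49 and -13.31. It was undetermined in all replicates of L-1210 and M1 and in both CT-BM replicates with a well, while CT-BM replicate 1 had none. The bound was at least 89.2-fold higher in PYS than in CT-BM, or 42.5-fold with quantile normalization. The assay was tested there only through its detection in PYS, so its direction was fixed in advance and no p-value is given. Within PYS the Ct of the 5p arm minus that of the 3p arm was -8.03 ± 0.15 cycles (SD, n = 3), the 5p arm being far the earlier.

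Of the 6 members, 5 were tested in L-1210 against CT-BM and all 5 were lower, where 45.6% of the 333 assays tested were lower and 68.2% were called in either direction. In M1 against CT-BM the same 5 were tested and lower, where 44.3% of 325 were lower and 69.5% called in either direction. miR-125a-3p was tested in neither comparison. Of the 5, 2 in L-1210 and 3 in M1 entered only through detection in CT-BM and had to be lower. The median log2 change of the tested members, bounds included, was -11.10 in L-1210 and -12.45 in M1, against -0.82 and -0.59 over all assays tested. Both medians are the bound of miR-99a itself, one of those that had to be lower, so nothing is read from the contrast. In PYS against CT-BM all 6 were tested, 2 were higher (39.8% of 362 assays were), 2 were lower (38.7% were) and 2 did not pass, with a median of -0.25 against 0.08 over all assays. One of the 2 higher members, miR-125a-3p, entered only through detection in PYS and had to be higher. The share of members called in PYS, 4 of 6, was below the 78.5% of all assays. The comparisons of the 3 lines share the CT-BM replicates.

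The comparison of PYS with each leukaemia line uses no CT-BM level. All 6 members were higher in PYS than in L-1210, where 45.9% of 351 assays were higher and 73.5% called in either direction. All 6 were also higher than in M1, where 46.0% of 341 assays were higher and 73.3% called. The background split depended on the scaling: against L-1210 the 161 higher and 97 lower assays became 118 and 132 with quantile normalization and 218 and 73 with snoRNA202 alone, and against M1 the 157 and 93 became 115 and 136 with quantile normalization and 209 and 65 with MammU6 alone. All 6 members were called higher in both comparisons under 7 scalings, except miR-125b-5p against M1 with quantile normalization. Of the 6, 3 against L-1210 and 4 against M1 entered only through PYS. Among the members measured on both sides, miR-125a-5p was 2797-fold higher in PYS than in L-1210 (log2 change 11.45 ± 0.82, SE, limma adjusted p = 1.92e-08), or 1314-fold without L-1210 replicate 1 and 4693-fold without replicate 3. It was 3078-fold higher than in M1 (11.59 ± 0.82), or 1767-fold without M1 replicate 2. With quantile normalization these were 1191-fold and 328-fold. miR-125b-5p was 46.6-fold higher in PYS than in L-1210 and 146-fold higher than in M1, although with quantile normalization it was 4.84-fold higher than in L-1210 (log2 change 2.27), and the change against M1 was 0.51 and did not pass (adjusted p = 0.239). miR-100 was 4.39-fold higher in PYS than in L-1210 (2.13 ± 0.31, limma adjusted p = 4.91e-05), or 2.64-fold with snoRNA135 alone. The bounds were widest for miR-99b, at least 122302-fold higher in PYS than in L-1210 and at least 312520-fold higher than in M1. For miR-99a they were at least 1469-fold and 3754-fold, for miR-125a-3p at least 198-fold and 507-fold, and for miR-100 against M1 at least 5341-fold. Over the scalings the smallest bounds were 69801-fold and 111150-fold for miR-99b, 838-fold and 1331-fold for miR-99a, 42.5-fold in both for miR-125a-3p and 2129-fold for miR-100.

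Between the leukaemia lines, 3 members could be tested and 2 were higher in L-1210 than in M1, where 25.2% of 306 assays were higher, 30.7% lower and 55.9% called in all. That split of 77 higher and 94 lower became 153 and 43 with MammU6 alone and 61 and 180 with snoRNA202 alone. miR-100 was at least 1217-fold higher (424-fold with snoRNA202 alone), having amplified in L-1210 alone. miR-125b-5p was 3.13-fold higher (log2 change 1.65 ± 0.45, SE, limma adjusted p = 0.00731), with all 3 L-1210 replicates above both of M1. That second call was not stable. The change was 0.51 with snoRNA202 alone, 0.98 with snoRNA135 and snoRNA202, and 1.28 without M1 replicate 3 (adjusted p = 0.0759), and with quantile normalization it turned to -1.77 and was called lower. miR-125a-5p overlapped between the lines (0.14 ± 0.83, adjusted p = 0.906), with -1.86 and a call under quantile normalization.

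The clusters were compared next, because genes that lie close together are often transcribed together. In the chromosome 17 cluster miR-125a-5p was lower with miR-99b in both leukaemia lines, whereas let-7e was not called there. let-7e, a differentiation-associated miRNA from the gene between Mir99b and Mir125a, had levels of -7.17, -5.99 and -6.45 in L-1210 and -4.84, -6.73 and -6.35 in M1, and of -10.45, -10.13 and -10.04 in PYS, against -6.82, -6.68 and -6.68 in CT-BM. It was thus plainly present in both leukaemia lines, where miR-99b was undetermined in 6 of 6 replicates. In L-1210 (log2 change 0.19, adjusted p = 0.70) and M1 (0.75, adjusted p = 0.129) it did not pass, and in PYS, where miR-99b was higher, let-7e was 11.2-fold lower (-3.48 ± 0.43, SE, limma adjusted p = 5.31e-06). Under the other scalings let-7e was lower in PYS each time (-4.40 to -1.97), but its direction in L-1210 depended on the scaling (-1.45 with snoRNA202 alone and 1.93 with MammU6 alone, both called), and in M1 it was called higher with common assays (1.31) and quantile normalization (1.35). The rat-named assay for let-7e* amplified in PYS alone, at a mean level of -17.71 ± 0.51 (SD, n = 3).

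The opposite arm of the Mir99b hairpin, miR-99b*, was measured on card B. It was detected in all 12 replicates, with levels of -15.07, -16.25 and -17.17 in L-1210, -15.49, -15.84 and -15.72 in M1 and -9.31, -8.56 and -8.76 in PYS, against -10.69, -11.80 and -10.55 in CT-BM. Its order was that of miR-99b, highest in PYS and lowest in the leukaemia lines. It was 35.6-fold lower in L-1210 and 25.5-fold lower in M1 than in CT-BM (log2 changes of -6.81 to -3.13 and of -5.44 to -3.63 over the scalings), and 4.39-fold higher in PYS (log2 change 2.13 ± 0.47, SE, limma adjusted p = 0.000926). The PYS call was lost with snoRNA135 alone (0.95, adjusted p = 0.0851) and with quantile normalization (0.99, adjusted p = 0.126), and over 7 scalings the log2 change ran from 0.95 to 4.16. Thus in both leukaemia lines the star arm amplified in every replicate and the main arm in none. The table does not say whether an undetermined well held too little template or failed, so the bounds on miR-99b in these lines depend on reading it as the first.

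**Figure D2:**
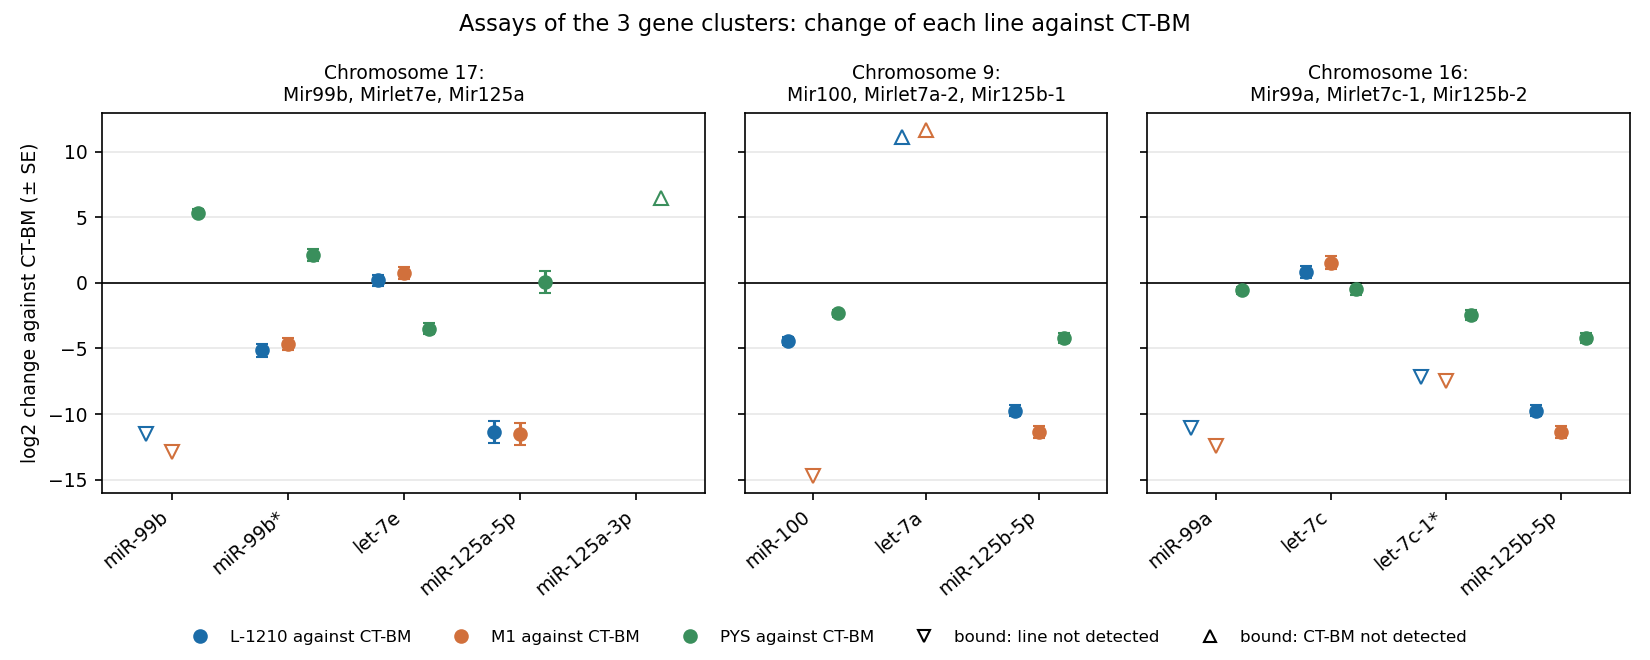
Log2 change of each line against CT-BM (y axis) for the assays of the 3 gene clusters, on chromosomes 17, 9 and 16, with the miR-125b-5p assay drawn in both clusters that encode it. Filled points are log2 changes with their SE, and open triangles are bounds at the Ct limit. In the chromosome 17 cluster PYS is at 5.34 for miR-99b, -3.48 for let-7e and 0.08 for miR-125a-5p, and both leukaemia lines are near 0 for let-7e and below -11 for miR-99b and miR-125a-5p.

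In the chromosome 9 cluster, let-7a was detected in the leukaemia lines, in the 2 replicates of each with a well (mean levels -9.10 in L-1210 and -8.55 in M1), and was undetermined in all 3 replicates of PYS and of CT-BM, where miR-100 and miR-125b-5p amplified. The assay let-7a* was detected in all 12 replicates, at mean levels of -14.23 in PYS and -12.97 in CT-BM. Its name does not say which gene it reads, so it is not assigned to this cluster. The reading of the undetermined let-7a wells is uncertain here too. The let-7a sequence is encoded at several places in the genome, so the assay is not specific to this cluster. For the chromosome 16 cluster, let-7c was detected in all 12 replicates. Its name gives no gene number, so this assay is not assigned to Mirlet7c-1 alone. L-1210 had a mean level of -9.12 ± 1.01, M1 of -8.42 ± 0.63 and PYS of -10.41 ± 0.17, against -9.97 ± 0.48 in CT-BM (SD, n = 3 each), with a call only in M1 (2.93-fold higher, adjusted p = 0.00907). With other scalings let-7c was also called higher in L-1210 (2.60 with MammU6 alone, 1.98 with common assays and 2.10 with quantile normalization) and lower in PYS (-1.36 to -1.03 with 1 or both snoRNAs). The star arm let-7c-1*, which is specific to Mirlet7c-1, was undetermined in L-1210 and M1 and detected in PYS and CT-BM, as miR-99a was, at mean levels of -17.60 and -15.14. The rat-named assay for miR-99a* amplified in CT-BM alone, in both replicates with a well.

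Of the 9 listed let-7 and miR-98 assays, none of the 8 tested was lower in L-1210 or M1 than in CT-BM, and 1 was higher in L-1210 and 3 in M1, where 22.5% and 25.2% of all assays tested were higher. One of these in each line was let-7a, which entered only through the leukaemia line and had to be higher. With other scalings these counts moved: in L-1210, 8 were higher with MammU6 alone and 6 with common assays or quantile normalization, while 4 were lower with snoRNA202 alone and 2 with both snoRNAs, and in M1 2 to 5 were higher and none lower. In PYS 5 of the 7 tested were lower than in CT-BM and 0 higher, and 5 or 6 were lower under the other scalings, let-7f among them as a bound that had to be lower. Against L-1210 and against M1, all 8 tested let-7 assays were lower in PYS, where all 6 members were higher. Of the 8, let-7a and let-7f were undetermined in PYS, entered only through the leukaemia lines and had to be lower. With other scalings 6 let-7 assays passed against L-1210 with snoRNA202 alone and 6 against M1 with MammU6 alone. The background shares are those given above for lower calls against CT-BM, and 27.6% and 27.3% of assays were lower in PYS than in L-1210 and M1.

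Differences in Ct between assays of card A in the same replicate do not depend on the controls, since the controls cancel. Each is compared between a line and CT-BM, because different assays can amplify with different efficiency and the Ct difference itself is not a ratio of amounts. In all, 9 such differences had both assays detected in all 6 replicates. Within the chromosome 17 cluster, miR-99b came up before miR-125a-5p in PYS, and after it in CT-BM. The differences were -1.28, -1.23 and -1.21 cycles in PYS and 3.50, 3.86 and 4.70 cycles in CT-BM. That is a 38.2-fold change of their ratio, with a mean difference of -1.24 ± 0.04 cycles in PYS and 4.02 ± 0.62 cycles in CT-BM (SD, n = 3 each). Against let-7e the ratio of miR-99b differed 452-fold (-5.91 ± 0.12 cycles in PYS and 2.91 ± 0.24 cycles in CT-BM).

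Among the seed relatives, miR-99a came up 6.38 ± 0.24 cycles after miR-99b in PYS and 0.46 ± 0.31 cycles after it in CT-BM, a 60.3-fold change. For miR-99a and miR-100 the difference was 0.51 ± 0.36 cycles in PYS and 2.25 ± 0.30 cycles in CT-BM, a 3.34-fold change. The Ct of miR-125a-5p minus that of miR-125b-5p was -7.67, -7.45 and -7.91 cycles in PYS and -3.14, -2.83 and -4.20 cycles in CT-BM, a 19.5-fold change toward miR-125a-5p.

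The pairs encoded on chromosomes 16 and 9 also lay apart. miR-99a relative to miR-125b-5p was at -2.54 ± 0.30 cycles in PYS and 1.09 ± 0.35 cycles in CT-BM (12.4-fold), and miR-100 relative to miR-125b-5p at -3.05 ± 0.17 and -1.16 ± 0.45 cycles (3.71-fold). In these 7 pairs the PYS and CT-BM replicates did not overlap. The exact two-sided permutation p was 0.1 for each, the smallest that 3 against 3 can give (adjusted p = 0.129 over 9 tests), so this design cannot pass the threshold. The share of all assay pairs of the card that lie apart in this way was not computed. Of single assays, 78.5% were called in PYS against CT-BM, and the 7 pairs reuse the same few assays. Nothing particular to the members is therefore read from the count of pairs. The pair miR-99a and let-7c overlapped (0.26 ± 0.19 cycles in PYS and 0.12 ± 0.30 cycles in CT-BM, exact permutation p = 0.6), as did miR-125a-5p and miR-125b-5p in L-1210 (-1.77 ± 2.13 cycles) against CT-BM (-3.39 ± 0.72 cycles, exact permutation p = 0.3). In L-1210 replicate 1 alone miR-125b-5p came up first, by 0.633 cycles.

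**Figure D3:**
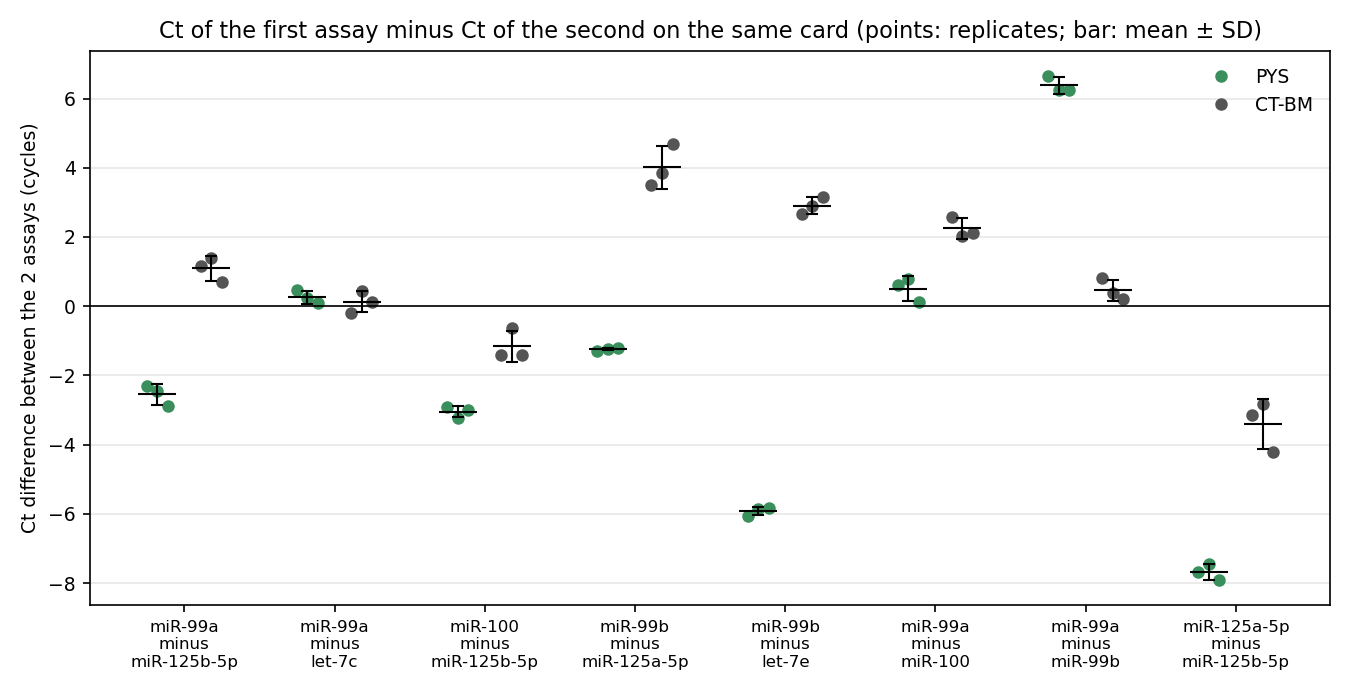
Ct of the first assay minus Ct of the second on card A (y axis, cycles) for 8 pairs in PYS (left of each pair) and CT-BM (right). Points are replicates and bars the mean ± SD. A value below 0 means that the first assay came up earlier. The miR-99b and miR-125a-5p pair is at -1.24 cycles in PYS and 4.02 cycles in CT-BM, while miR-99a and let-7c overlap.

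The direction of the PYS comparison with CT-BM was examined under 7 ways of scaling. miR-99b stayed higher and miR-125b-5p lower in all 7, and the bound of miR-125a-3p stayed above 2-fold. The changes of miR-99a and miR-125a-5p crossed 0, and miR-100 stayed negative but was not called with MammU6 alone. Over all assays tested, the median log2 change moved by 1.76 with MammU6 alone, -0.92 with snoRNA135 alone, -0.59 with snoRNA202 alone, -0.76 with both snoRNAs, 0.60 with common assays and 0.37 with quantile normalization.

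**Figure D4:**
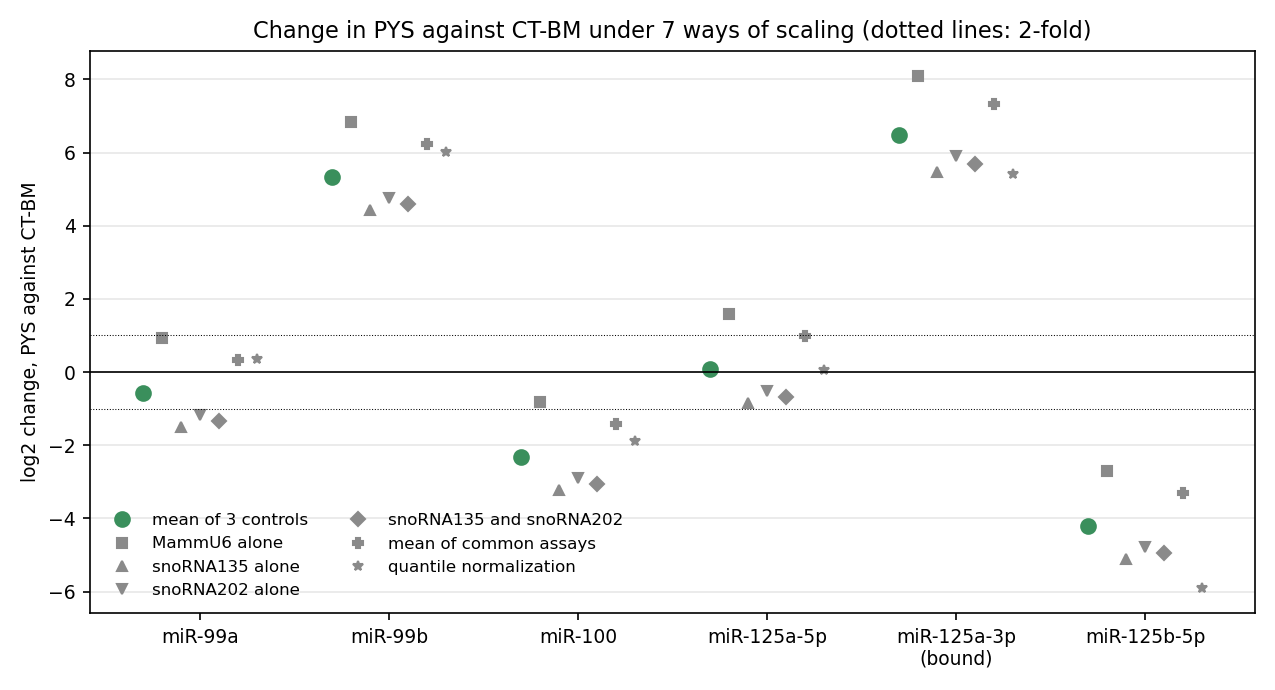
Log2 change of the 6 members in PYS against CT-BM (y axis) under 7 ways of scaling, with dotted lines at a 2-fold change. The value relative to the mean of 3 controls is the larger green point, and miR-125a-3p is a bound. miR-99b lies above the lines and miR-125b-5p below them under every scaling, and miR-99a runs between -1.50 and 0.93.

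The assay miR-351, which has the miR-125 seed but shares only the first 8 bases with miR-125a-5p, is no member. It amplified in M1 (Ct 21.52, 21.26 and 20.96, mean level -8.79 ± 0.18, SD) and in CT-BM (Ct 24.30, 24.16 and 25.0, mean level -9.67 ± 0.53) and was undetermined in L-1210 and PYS. In M1, where miR-125a-5p and miR-125b-5p came up late, its log2 change against CT-BM was 0.88 ± 0.32 (SE), under the 2-fold minimum. It was called higher in M1 with snoRNA135 alone (1.01), common assays (1.44) and quantile normalization (2.42). A second assay of that name, designed for rat, was detected in all 12 replicates, L-1210 and PYS included. The sequences of these relatives are shown beside the members' because the shared letters matter here.
miR-351: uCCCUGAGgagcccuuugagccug
miR-10a: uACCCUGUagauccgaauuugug

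miR-10a matches miR-100 at 19 of its 22 bases when shifted by 1 base, so it has a different seed. It had levels of -6.96, -6.02 and -6.46 in L-1210 and -15.69, -15.73 and -15.61 in M1, was undetermined in PYS, and averaged -9.71 ± 0.21 in CT-BM (SD, n = 3). It was 9.40-fold higher in L-1210 than in CT-BM and 62.5-fold lower in M1 (log2 changes of 1.60 to 4.98 and of -6.28 to -2.57 over the scalings). miR-10b amplified in L-1210 alone, with levels of -14.20, -12.95 and -12.03. In L-1210, the leukaemia line in which miR-100 amplified, both miR-10 assays were thus detected. The part of such near matches in the miR-100 signal was not tested. In M1, where miR-100 was undetermined in 3 of 3 replicates, miR-10a amplified at Ct 28.53, 27.99 and 27.87.

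Of 273 other assays, those whose levels ran most like each member were named by Pearson's r over the replicates, as a description. For miR-99a they were miR-676 (r = 0.995) and miR-335-5p (r = 0.994), for miR-99b miR-335-3p (r = 0.998) and rno-miR-224 (r = 0.989), and for miR-125a-5p miR-574-3p (r = 0.986) and miR-676 (r = 0.980), all over 12 replicates. Over 11 replicates they were rno-miR-463 (r = 0.978) and miR-682 (r = 0.977) for miR-100, let-7c-1* (r = 0.978) and miR-148a (r = 0.971) for miR-125b-5p, and miR-187 and miR-330 for miR-125a-3p. Replicates that were not detected stand at the Ct limit and the values of a card share their controls, so an assay that amplified in the same groups as a member has a high r. Pearson's r also leaves out the size of a change. The mean level of miR-574-3p was -7.80 in L-1210 and -5.69 in CT-BM, against -16.98 and -5.61 for miR-125a-5p. Among the members, miR-99a and miR-125a-5p ran most alike (r = 0.981), and miR-125a-3p and miR-125b-5p least (r = 0.508, over 10 replicates).

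Relative to the controls, the listed stromal, erythroid and endothelial miRNAs had lower sums in all 3 lines than in CT-BM. Of 4 stromal miRNAs, 1 was detected in L-1210, 2 in M1, 2 in PYS and 4 in CT-BM, with miR-143 and miR-214 undetected in all 3 lines. Their summed level relative to the controls was 0.00049 to 0.000659 in L-1210, 0.000335 to 0.000719 in M1 and 8.7e-05 to 0.000134 in PYS, against 0.0128 to 0.0192 in CT-BM. Of the erythroid pair miR-451 and miR-486, 0 were detected in every replicate in L-1210 and M1, 1 in PYS and 2 in CT-BM, where the sum was 0.0160 to 0.0180. Both endothelial miR-126 arms were detected in all 4 groups, at 0.0296 to 0.0419 in L-1210, 0.0430 to 0.0522 in M1 and 0.0261 to 0.0365 in PYS, against 0.280 to 0.311 in CT-BM. Since the 3 lines amplified them too, these arms cannot mark endothelial cells alone here. The part of these cell types in the CT-BM levels of miR-99a, miR-99b, miR-100, miR-125a-5p and miR-125b-5p was not tested. In PYS, where stromal miRNAs were at their lowest sums, the log2 change against CT-BM was -0.58 for miR-99a, 5.34 for miR-99b, -2.32 for miR-100, 0.08 for miR-125a-5p and -4.21 for miR-125b-5p, and the bound for miR-125a-3p was 6.48.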

How the data were processed

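Total RNA of 12 replicates was, per the labels' protocols, extracted with a mirVana kit, reverse transcribed, preamplified and run for 40 cycles on TaqMan cards A and B on a 7900HT instrument. Each replicate title stands on 2 GEO samples, 24 in all, 1 per card. Per the file headers, the authors' deposited values are Ct per well and Ct Avg per assay and card, in PCR cycles and not normalized. The software and its settings are not given in the sources used here. For 3543 of 3543 checked values Ct Avg lay within 0.001 cycles of its wells' mean. Repeat wells had a median SD of 0.117 cycles (930 sets). No column of sample values was left unused (0 columns).

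Undetermined wells and Ct over 35 (15 wells) were given a Ct of 35 and taken as not detected. Absent wells were left out, so fits used the replicates present. R 4.3.3 with limma 3.58.1 fitted 4 group means to the negative delta Ct of all 12 replicates (lmFit, then eBayes). An assay was tested where every replicate present, and at least 2, of at least 1 group was detected, and called with a change of at least 2-fold and a p under 0.05 after Benjamini-Hochberg adjustment over all tested assays. Ct differences between members were compared by exact permutation tests (SciPy 1.17.1). Python 3.11.15, pandas 2.3.3, numpy 2.4.6 and matplotlib 3.10.9 were also used. The fit was tested on simulated data in which every value was present and detected, so that test does not cover bounds, values at the Ct limit or absent wells.

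The members and lists were chosen with earlier results of these data known. Named were the 6 members, other assays of their clusters, assays with the same seed, miR-10a and miR-10b, rat-named assays of these families, and the 2 assays most like each member. Alternatives were each control alone, both snoRNAs, common assays, quantile normalization, other Ct limits and filters, other fits, the replicate block and leaving out each replicate.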

Additional observations from a re-analysis of the deposited data

Results flagged for a closer look

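The values here were picked out because 2 lines differed from each other by the fit's own test while moving in opposite directions from CT-BM. For miR-99b the log2 difference was 16.90 between PYS and L-1210 and 18.25 between PYS and M1, both bounds at the Ct limit. Its star arm, miR-99b*, measured on the other card and detected in every replicate, differed by 7.29 between PYS and L-1210 and by 6.80 between PYS and M1. For miR-10a, whose sequence is close to that of miR-100, the log2 difference was 9.20 between L-1210 and M1 and -14.65, a bound, between PYS and L-1210. For let-7a* it was -2.32 between PYS and L-1210 and -4.35 between PYS and M1. Against CT-BM, let-7a* was at only 1.06 in L-1210 and -1.26 in PYS. A change of control shifts all assays of a card alike. On the same card miR-99b* went from -5.16 to -6.81 in L-1210 with snoRNA202 alone, and from 2.13 to 4.16 in PYS with MammU6 alone. Shifts of this size turn the sign of let-7a* in either line, so its opposite directions depend on the scaling. These groups have 3 replicates each, so no single replicate was examined as an outlier.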

How the results depend on the processing

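Of 592 alternative values of the members' log2 changes, 569 kept their direction and call, 5 lost the call, 3 gained it and 15 changed sign. A part of this was fixed in advance. Bounds on members that entered through 1 group had to keep their direction. A change of filter or fold minimum leaves the log2 change itself as it was. The 569 are therefore not read as a measure of stability, and the counts of members called, given below, include the same bounds. The sign of miR-99a in PYS against CT-BM turned when scaled to MammU6 (0.93), to common assays (0.32) or by quantiles (0.36). For miR-125a-5p it turned in PYS against CT-BM with snoRNA135 (-0.84), snoRNA202 (-0.51), both (-0.67) and without CT-BM replicate 1 (-0.11). In L-1210 against M1 it turned with snoRNA135 (-0.10), snoRNA202 (-1.18), both (-0.64), quantiles (-1.86), and without L-1210 replicate 2 (-0.20), L-1210 replicate 3 (-0.61) or M1 replicate 2 (-0.66), with a range of -0.66 to 1.23 over the replicates left out. For miR-125b-5p in L-1210 against M1 it turned with quantiles (-1.77). The cause of these changes was not tested. The difference of miR-99a and let-7c in PYS against CT-BM was -0.015 cycles without CT-BM replicate 1 and up to 0.289 when another replicate was left out.

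Counts of members called were within 1.5 times the main ones in 107 of 120 alternatives. With only assays detected in all 12 replicates, where miR-125a-5p alone was tested, 1 member was called in L-1210 and 1 in M1 against CT-BM, 0 in PYS against CT-BM, 0 in L-1210 against M1, and 1 in PYS against each leukaemia line. In L-1210 against M1 the count was 1 with snoRNA202, 1 with both snoRNAs, 1 with a Ct limit of 32 and 5 with no filter, where assays undetected in both lines differ by their controls alone. Leaving out 1 replicate gave 1 to 2 there. Over all assays, no filter gave 473, 487 and 349 calls in L-1210 and M1 against CT-BM and L-1210 against M1, in place of 227, 226 and 171, and 401 in place of 250 in PYS against M1. Only assays detected in all 12 gave 98, 103, 124, 87, 120 and 115, in place of 227, 226, 284, 171, 258 and 250. With the replicate number as a block the counts of members called were 5, 5, 4, 2, 6 and 6, and no call changed. Same-numbered replicates correlated at -0.45 to 0.33, over 0.1 in 3 of 18 pairs, and 2 of 12 replicates correlated best with their own number, so the numbers were not taken as pairing. Bounds move with the Ct limit by construction.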
